A study of Mus musculus with 3 samples.

Results

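Cells with at least 2 of the 4 transcripts *Ptgfr*, *Sfrp4*, *Akr1c18* and *Parm1* were examined in a scRNA-seq table of mouse ovary, under the working name of luteal-marker cells. A cell was chosen when at least 2 of these 4 genes were above 0, *Cyp11a1* was at 2 or more and *Cyp17a1* under 2.5 on the deposited log scale, and *Ptprc* and *Pecam1* were at 0. The rule found 2024 of 31776 cells, or 6.37% (exact binomial 95% interval 6.10 to 6.64%). The values of these 8 genes chose the cells, so their levels in the chosen cells are descriptions only.

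The ovaries were collected 0, 1 and 6 h after an injection of human chorionic gonadotropin (hCG), the hormone used in place of the luteinizing hormone surge, and each time point had 1 library made on the 10x Chromium platform. The study describes its scRNA-seq ovaries as those of immature Kunming mice given pregnant mare serum gonadotropin (PMSG), a hormone with FSH activity, and mentions no hCG for them, so its description fits the 0 h library only. How many ovaries or animals went into a library was not given in the sources used here. Barcodes in the table end in 1, 2 or 3. The labels number the libraries in the order of the time points, but no source says that a barcode ending is that number, so the table was treated as 1 sample and cells are given by barcode ending as sets 1, 2 and 3, with no time point. No test was therefore run between sets or between groups of cells, and intervals cover counting error only.

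The corpus luteum forms from the granulosa and theca cells of a follicle after ovulation, and its cells convert cholesterol to progesterone. *Cyp11a1* encodes the enzyme of the first step of this synthesis and *Cyp17a1* the theca enzyme that leads on to androgens. *Ptgfr* encodes the receptor for prostaglandin F2α, which brings about luteal regression in rodents, *Akr1c18* the enzyme that breaks progesterone down at that time, *Sfrp4* a secreted antagonist of Wnt ligands, *Parm1* a mucin-like membrane glycoprotein, and *S100a6* a small calcium-binding protein. *Ptprc* and *Pecam1* mark leukocytes and endothelial cells.

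By the rule alone, set 1 held 306 luteal-marker cells of 10384 (2.95%, 2.63 to 3.29%), set 2 held 442 of 9917 (4.46%, 4.06 to 4.88%) and set 3 held 1276 of 11475 (11.1%, 10.6 to 11.7%). The markers that brought cells in were not the same in the 3 sets. In set 3, *Sfrp4* and *Parm1* without the other markers accounted for 930 of the 1276 cells (72.9%), whereas *Sfrp4* and *Ptgfr* without the others accounted for 309 of the 442 cells of set 2 (69.9%) and 139 of the 306 of set 1 (45.4%). *Ptgfr* was above 0 in 83.7% of the chosen cells of set 1, 97.5% of set 2 and 19.3% of set 3, and *Parm1* in 50.7%, 26.9% and 88.2%. *Akr1c18* was rare in all 3 sets, at 7.19%, 3.39% and 9.17% of the chosen cells. When both *Sfrp4* and *Ptgfr* were required, an alternative chosen after seeing the data, the shares were 2.33%, 4.02% and 1.80%, so the order of the sets depended on which markers were counted. With a *Cyp11a1* limit of 3 the shares were 2.67%, 2.57% and 5.35%, and the intervals of set 1 (2.37 to 3.0%) and set 2 (2.27 to 2.90%) overlapped.

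**Figure D1:**
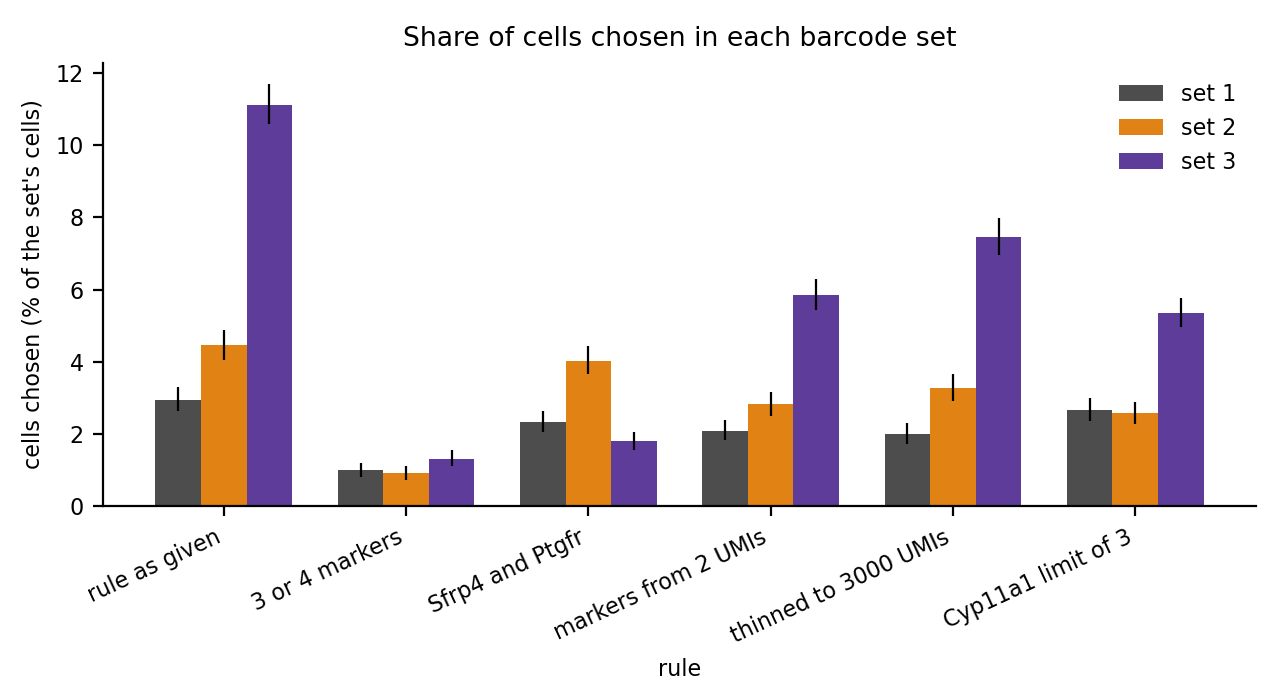
Cells chosen in each barcode set, as a percentage of the set's cells, under the rule as given and 5 alternatives; bars start at 0 and lines are exact 95% binomial intervals. Set 3 had 11.1% under the rule as given, but 1.80% when *Sfrp4* and *Ptgfr* were both required.

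The limits of the rule cut through a continuous range. Of the chosen cells, 70 lay within 0.1 above the *Cyp11a1* limit and 63 cells lay within 0.1 below it and were left out by it alone. For *Cyp17a1* the corresponding numbers were 7 inside and 5 outside, and 1643 of the 2024 cells had no *Cyp17a1* UMI. Among the 1678 cells with exactly 2 markers, 799 had the lower marker at 1 UMI and 132 had both at 1 UMI. The 329 *Ptprc*-positive cells with *Cyp11a1* under 2 should lack these genes. *Sfrp4* was detected in 9.12% of them, *Ptgfr* in 2.74%, *Parm1* in 3.04% and *Akr1c18* in 0.608% (median 4899 UMIs per cell). The shares in the chosen cells were 95%, 46.1%, 69.2% and 7.61% (median 7762.5 UMIs). By set, the share in *Ptprc*-positive cells was highest in set 3 for *Sfrp4* (12.1%) and *Parm1* (6.45%), at a median of 4082 UMIs. For *Ptgfr* it was highest in set 2 (6.20%). *Cyp11a1* was detected in 35.6% of these *Ptprc*-positive cells, at a level of 1.04 UMIs per 10000. The limit used to choose them held this level down, so it is no free measure of background. *S100a6*, which leukocytes also express, was detected in 62.0% of them and 74.6% of the chosen cells, and in set 3 in 79.8% and 81.7%. Depth also moved with the choice, since the median was 15400 UMIs in the chosen cells of set 1, 7923 in set 2 and 6844 in set 3, beside 6093, 6352 and 6524 over all cells of the sets. When cells were thinned to 3000 UMIs and shallower cells left out, the shares were 2.01% of 9309 cells, 3.28% of 8941 and 7.47% of 10484.

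When the chosen cells were clustered on 2000 variable genes, with the 8 genes of the rule left out, they fell into 7 groups that followed the barcode sets closely. No correction between sets was made. For groups nearly confined to 1 set, kind of cell and barcode set therefore cannot be told apart. Group 2, called here the *Ssu2* and *Bhmt* group after its leading genes, which were not detected in every cell of it, drew on all 3 sets, with 263 cells of set 1, 125 of set 2 and 57 of set 3. It made up 85.9% of the luteal-marker cells of set 1 (81.5 to 89.6%), 28.3% of set 2 (24.1 to 32.7%) and 4.47% of set 3 (3.40 to 5.75%). Group 1, led by *Gcg* and *Lyve1*, held 912 cells, all of set 3, and group 3, led by *Areg* and *F3*, held 304 cells, of which 303 were of set 2. Group 4, led by *Nusap1* and *Ccnb1*, had 166 cells, 165 of them of set 3. Group 5, led by *Il33* and *Aqp2*, had 126 cells of all 3 sets. Group 6, led by *Ctla2a* and *Ly6a*, had 51 cells of set 3, and group 7, led by *Smim10l2a* and *Grem1*, had 20 cells, 19 of them of set 1.

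**Figure D2:**
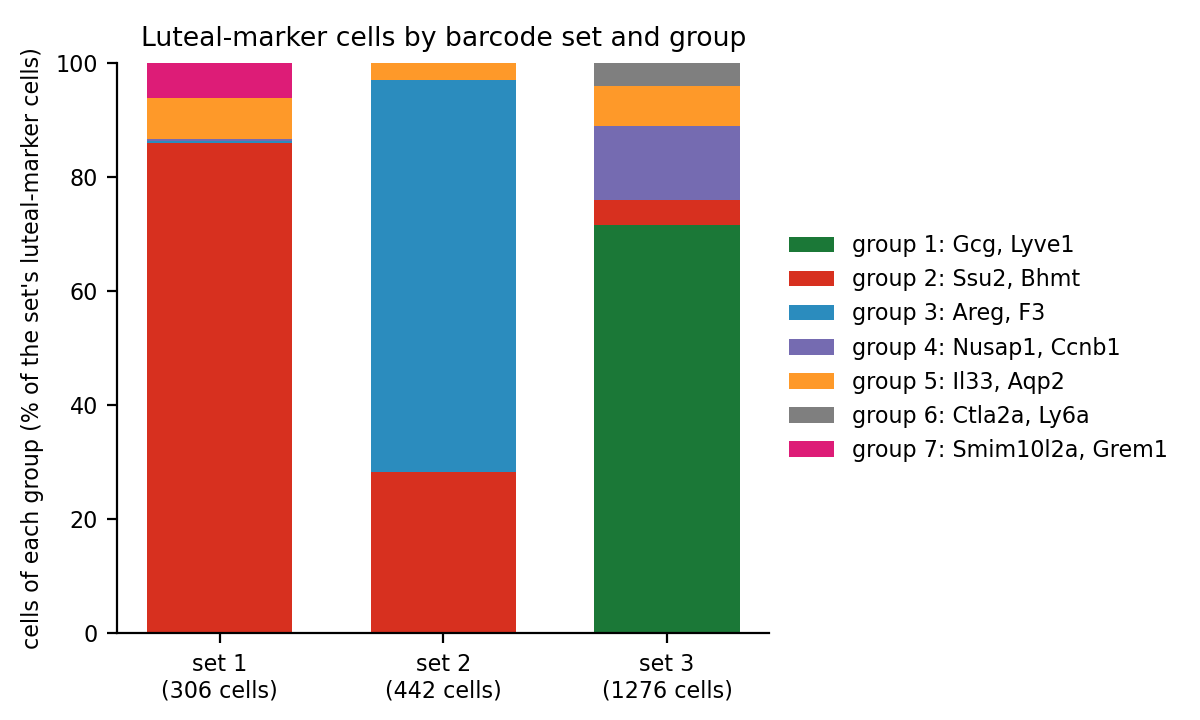
Share of the luteal-marker cells of each barcode set (%) in each of the 7 groups, named by 2 of their leading genes; each bar adds to 100%. Group 2 made up 85.9% of set 1, group 3 68.6% of set 2 and group 1 71.5% of set 3.

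**Figure D3:**
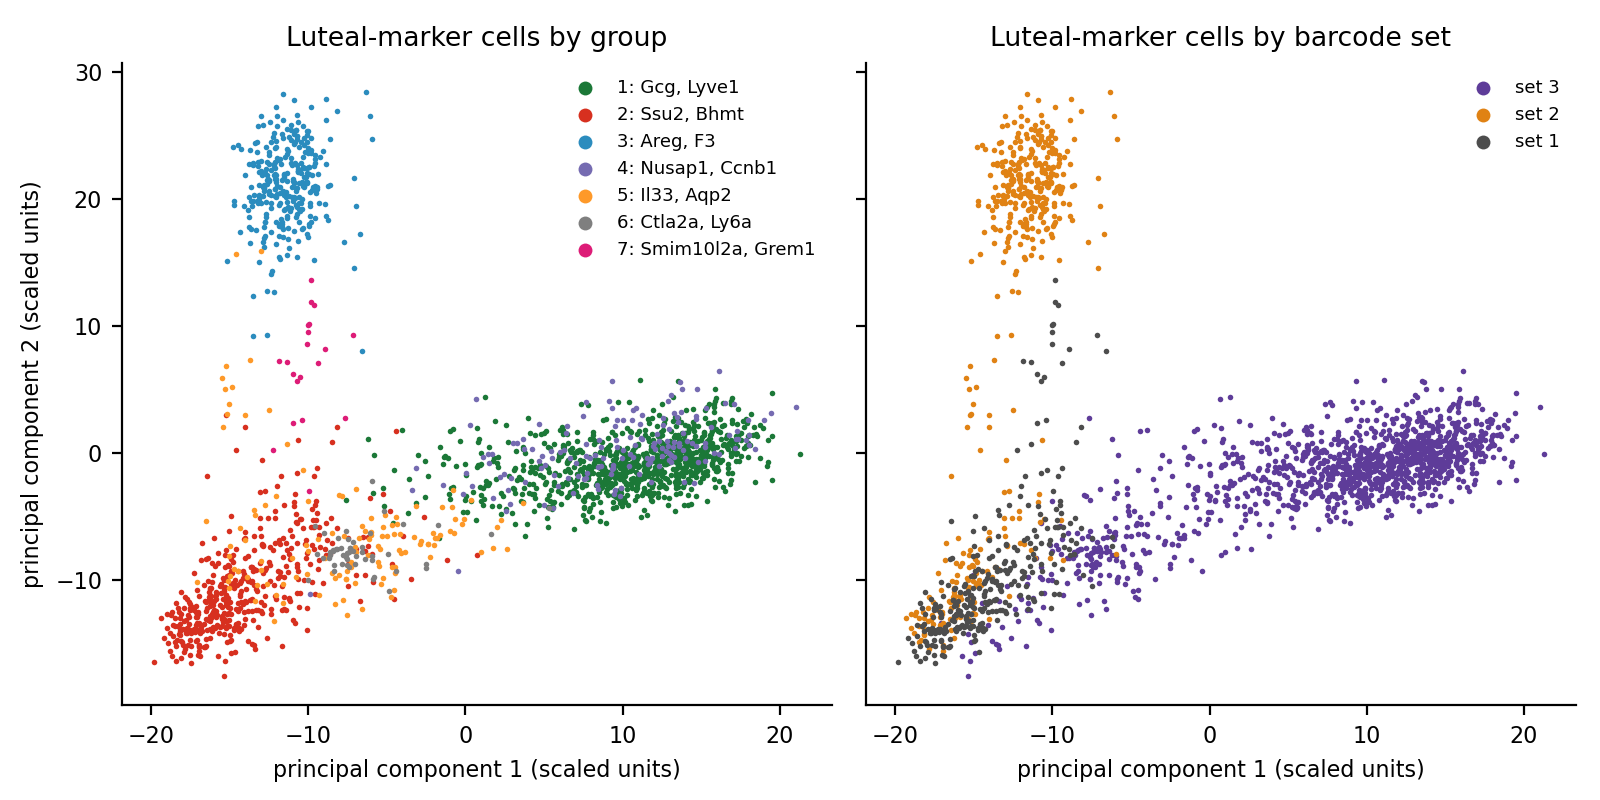
The 2024 luteal-marker cells on the first principal components of the clustered genes (scaled units), each point a cell, coloured by group on the left and by barcode set on the right. Group 2 cells of the 3 sets lie together, whereas groups 1 and 3 lie apart from each other and each come from 1 set but for 1 cell of group 3.

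The cells were checked against granulosa, theca and other marker lists, and for groups 1, 3, 4 and 7 granulosa markers went against the name luteal. For group 5 those of theca and stroma went against it, and for group 6 those of granulosa, stroma and smooth muscle. *Inha*, which encodes the inhibin α subunit of granulosa cells (GCs), stood at 44.7 UMIs per 10000 in group 1, 99.9 in group 3, 38.6 in group 4 and 91.8 in group 7, against 6.71 in group 2. A level is given here and below as the UMIs of a gene summed over the cells of a group, per 10000 summed UMIs. *S100a6*, the marker of the list that the rule did not use but that was open to the clustering, was at 52.0 in group 2, 12.0 in group 1, 13.2 in group 6, 5.41 in group 4, 4.06 in group 7, 2.55 in group 5 and 0.913 in group 3. *Ptgfr* was at 5.34 in group 2 and 5.70 in group 3, and at 1.54 or less in the others. Group 2 thus had the highest *S100a6* level of the 7 groups, while its *Ptgfr* level, chosen on by the rule, was close to that of group 3.

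Group 1 differed little from other GCs of its set. Against 409 cells of set 3 chosen by *Inha* and *Lhcgr* that were not luteal-marker cells (the granulosa reference), 11 of 3549 genes with a level of at least 0.5 in either group were at least 2-fold higher (0.310%) and 69 at least 2-fold lower (1.94%). *Gcg*, the glucagon gene, was at 1.08 in group 1 and 0.203 in the reference (ratio 5.32, 4.18 to 6.86), and *Npy*, which encodes neuropeptide Y, was at 5.24 against 2.25. *Igfbp7*, an insulin-like growth factor binding protein, was lower at 0.363 against 2.79, and the 8 stroma markers summed to 1.16 in group 1 and 4.83 in the reference and the 8 smooth muscle and pericyte markers to 1.20 and 3.21. The part of such cells in the difference was not tested. Mitotic genes were lower too, *Top2a* at 0.214 against 1.70, but the clustering had placed mitotic cells of set 3 in group 4, while the reference was not divided. Both groups of set 3 had *Sfrp4*, at 19.5 and 7.69, and *Parm1*, at 3.22 and 1.46, and these are genes of the rule. Over all luteal-marker cells of set 3, 7 of 3483 genes, *Ptgfr*, *Sfrp4* and *Akr1c18* of the rule among them, were higher (0.201%) and 8 lower (0.230%) than in this reference. With UMIs summed over all luteal-marker cells, sets 1 and 2 stood farther from their granulosa reference. In set 1, 314 of 3793 genes were higher (8.28%) and 395 lower (10.4%). In set 2, 191 of 3119 were higher (6.12%) and 104 lower (3.33%). The set 2 sum leaned on group 2, whose 125 of 442 cells held 2448021 of 4906150 UMIs. Group 3, with 303 of the 442 cells, was close to the reference, as described below. Against the theca reference, 337 of 3530 genes were higher (9.55%) and 318 lower (9.01%) in set 1, 343 of 3104 higher (11.1%) and 262 lower (8.44%) in set 2, and 417 of 3569 higher (11.7%) and 245 lower (6.86%) in set 3.

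Group 3 was likewise close to the 847 GCs of the reference in set 2, with 14 of 2947 genes higher (0.475%) and 25 lower (0.848%). It was led by *Areg* (32.9) and *Ereg* (35.2), the EGF-like factors that pass the ovulatory signal on within the follicle, by *F3* (22.7), which encodes tissue factor, by *Inhba* (68.8), which encodes the activin βA subunit, and by *Cyp19a1* (7.79), the aromatase. Its *S100a6* level of 0.913 was near that of the reference, 0.997.

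Group 4 was led by genes of mitosis, among them *Ccnb1* (1.82), which encodes cyclin B1, the spindle gene *Prc1* (3.71) and *Plk1* (0.648), and 138 of 3657 genes were at least 2-fold higher in its set 3 cells than in group 1 (3.77%) and 21 lower (0.574%). Group 5 had theca and stroma transcripts, with the 6 theca markers summing to 16.7 and the 8 stroma markers to 19.1, *Cyp11a1* at 59.9 and *Col3a1*, a fibrillar collagen gene, at 11.2. Against the *Cyp17a1*-high theca reference of set 3, 65 of 3246 genes were higher (2.0%) and 58 lower (1.79%) in its set 3 cells, *Spp1*, which encodes osteopontin, at 9.26 against 0.0975. Group 6 had a median of 4518 UMIs, *Acta2*, smooth muscle actin, at 10.7, the 8 smooth muscle and pericyte markers summing to 16.7, the 8 stroma markers to 12.6, the 8 endothelial markers to 1.64, the 4 erythroid markers to 1.53 and the 8 myeloid markers to 1.34. The myeloid sum was at most 0.102 in the other groups, and *Fcer1g*, an immunoglobulin receptor gene of leukocytes, was at 0.987 in group 6. Group 7 was led by *Grem1* (7.64), which encodes the BMP antagonist gremlin, *Trib2* (9.36) and *Fam13a* (8.53). Whether droplets with more than 1 cell contributed to groups 5 and 6, or to any other group, was not tested.

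**Figure D4:**
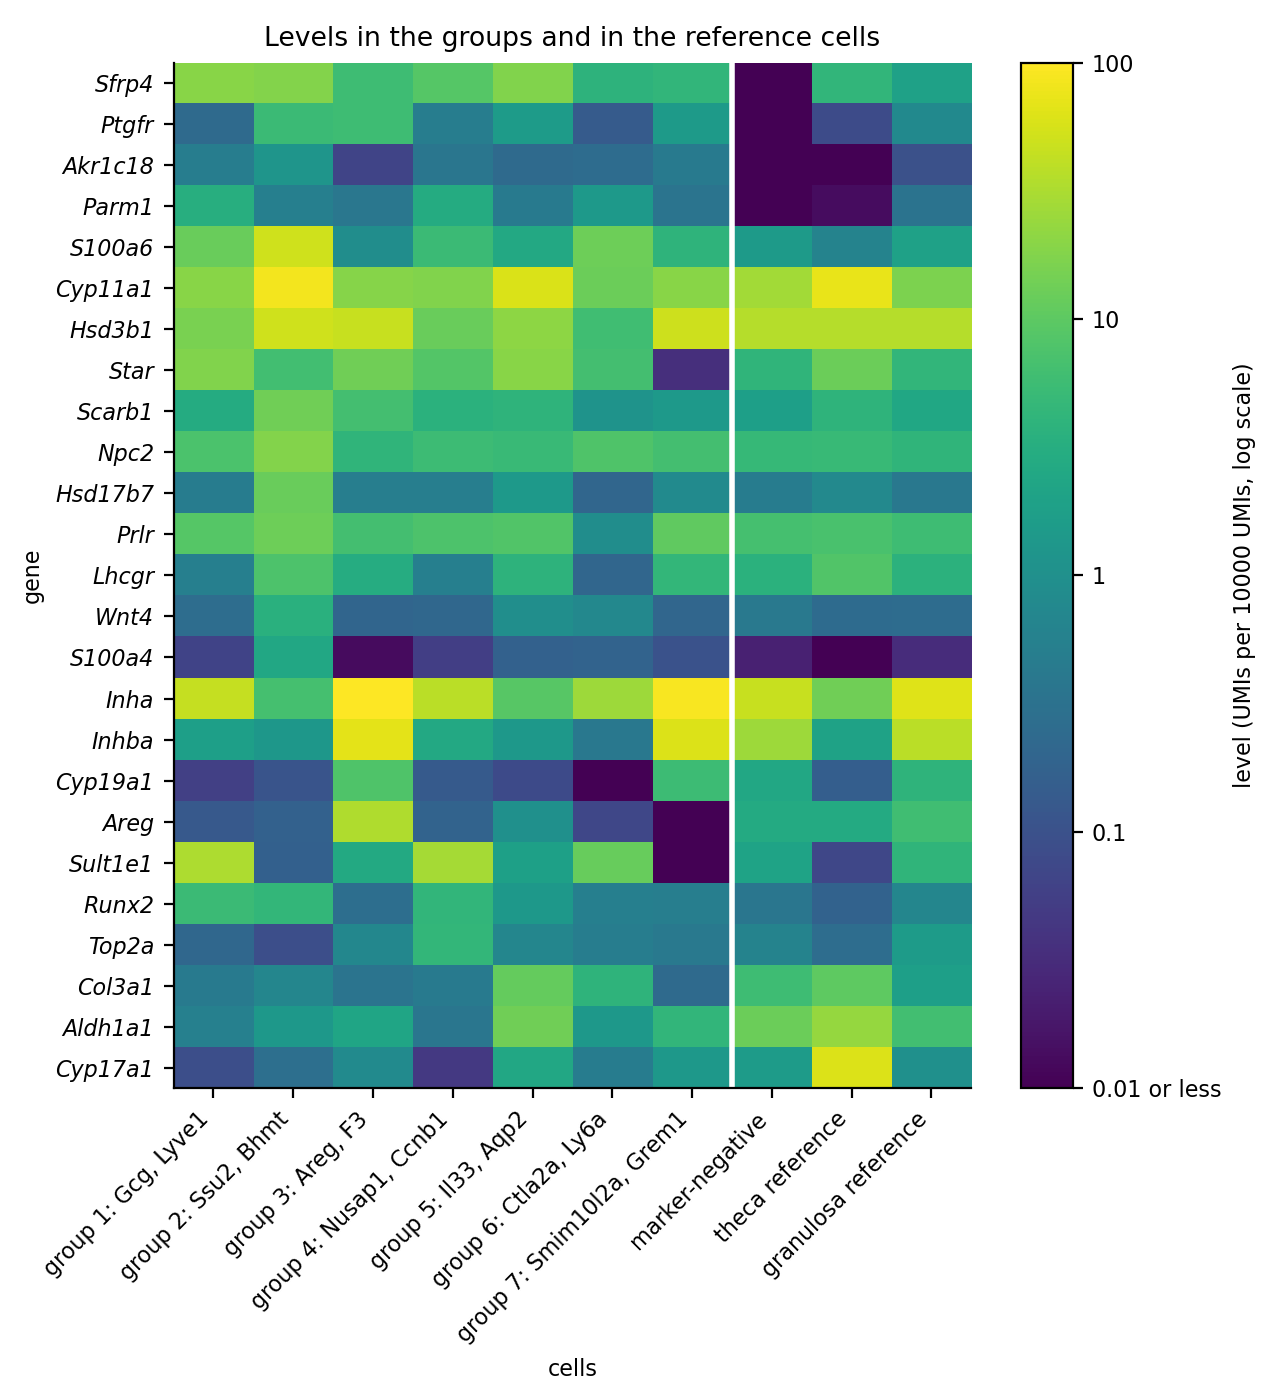
Levels of marker, steroid and other genes (rows, UMIs per 10000 UMIs, log colour scale) in the 7 groups of luteal-marker cells and, right of the white line, in 3 reference groups, all sets summed. Group 2 combines *Ptgfr*, *S100a6*, *Hsd17b7*, *Scarb1* and *Wnt4* with *Inha* at 6.71, whereas groups 1, 3, 4 and 7 have *Inha* between 38.6 and 99.9.

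The *Ssu2* and *Bhmt* group was therefore described in depth. It comprised 2.53% of all cells of set 1, 1.26% of set 2 and 0.497% of set 3 and had median depths of 15681, 17732 and 10992 UMIs per cell. *Ptgfr* and *Sfrp4* were both above 0 in 393 of its 445 cells and *Parm1* in 204. Its levels were compared, set by set, with marker-negative cells (the limits of the rule but none of the 4 markers: 917, 275 and 376 cells in sets 1 to 3), with the theca reference (the same limits but *Cyp17a1* at 2.5 or more, and fewer than 2 of the 4 markers: 632, 270 and 144 cells) and with the granulosa reference (1405, 847 and 409 cells). A marker-negative cell that met the *Inha* and *Lhcgr* limits was also in the granulosa reference, so these references can share cells. Median depths in sets 1 to 3 were 6670, 5615 and 4545 UMIs in marker-negative cells. They were 12036, 10364.5 and 11011 in the theca reference and 7299, 7111 and 7243 in the granulosa reference. The groups were found from the same counts, so ratios to these references describe group 2 and test nothing.

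Of the 5 markers, *Sfrp4* was at 13.3 in set 1, 22.6 in set 2 and 34.3 in set 3 of group 2, and *Ptgfr* at 5.19, 6.00 and 4.21. *S100a6* was at 46.9, 59.7 and 64.0, against 0.556, 0.486 and 5.42 in marker-negative cells, and was detected in 262 of 263, 125 of 125 and 56 of 57 cells, while *Ptprc*-positive cells had it at 4.09, 6.27 and 12.9. This marker, which the rule did not use, was higher by 84.4-fold (76.3 to 93.6) in set 1, 123-fold (97.5 to 157) in set 2 and 11.8-fold (11.1 to 12.6) in set 3. The clustering that defined the group was not kept from using it, so these ratios are no independent support. *Parm1* was low and even at 0.582, 0.441 and 0.564. *Akr1c18* stood at 0.232, 0.833 and 9.56, but in 14, 3 and 9 cells only, and 1 cell held 36.8%, 97.5% and 40.3% of its UMIs in the 3 sets. Most cells of the group thus had no detected transcript of this progesterone-degrading enzyme.

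On the GENCODE annotation of mm10, *Sfrp4* lies at chr13:19623104-19632994, *Ptgfr* at chr3:151796502-151837630, *Akr1c18* at chr13:4132615-4150654, *Parm1* at chr5:91517615-91626894 and *S100a6* at chr3:90612882-90624181.

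Genes of progesterone synthesis had no common direction in group 2. *Cyp11a1*, a gene of the rule, was at 79.3, 98.2 and 91.5 in sets 1 to 3. *Hsd3b1*, which encodes the enzyme that makes progesterone, was at 52.2, 50.5 and 37.6 against 43.5, 34.4 and 10.5 in marker-negative cells, past 2-fold in set 3 alone (ratio 3.59, 3.39 to 3.80). *Fdx1*, the electron donor of CYP11A1, was at 33.4, 79.3 and 44.1 against 9.25, 84.5 and 20. *Star*, which encodes the carrier of cholesterol into mitochondria, was at 4.01, 10.9 and 5.81 in group 2, against 0.201, 14 and 10.7 in marker-negative cells and 1.08, 30.7 and 38.9 in the theca reference. *Star* was thus higher than in all 3 references in set 1 and lower than in the theca reference in sets 2 and 3. *Nr5a1*, the steroidogenic factor SF-1, was low in the group at 0.154, 0.127 and 0.303, against 1.77, 0.740 and 0.616 in the theca reference, while its relative *Nr5a2* (LRH-1) was at 3.92, 4.31 and 4.79. Of the 7 measured genes of this list, set 1 had 2 higher and 1 lower than in marker-negative cells, set 2 had 2 higher and 2 lower, and set 3 had 4 higher and 0 lower. The background over all genes was 331 of 3735 higher (8.86%) and 401 lower (10.7%) in set 1, 568 of 3350 higher (17%) and 537 lower (16%) in set 2, and 279 of 3572 higher (7.81%) and 373 lower (10.4%) in set 3.

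Of the genes of cholesterol supply, *Scarb1*, *Npc2* and *Hmgcs1* were at least 2-fold higher in group 2 than in marker-negative cells in all 3 sets. *Scarb1*, the receptor that takes up cholesterol from HDL, was at 11.6, 17.2 and 18.5 against 0.979, 5.21 and 2.24 in marker-negative cells, with ratios of 11.9 (11 to 12.9), 3.30 (3.05 to 3.56) and 8.28 (7.44 to 9.23). Against the theca reference of set 2 the ratio of *Scarb1* was 1.81, under 2-fold. *Npc2*, which carries cholesterol out of lysosomes, was at 16.7, 20.8 and 18.6 against 4.63, 3.91 and 5.83, and was at least 2-fold above each reference in each set. *Hmgcs1*, an enzyme of cholesterol synthesis, was at 10.4, 14.2 and 13.3 against 3.81, 1.53 and 5.02 in marker-negative cells. *Abca1*, which exports cholesterol, was below marker-negative cells at 0.393, 0.568 and 0.330 against 2.49, 1.01 and 3.24, past 2-fold in sets 1 and 3. Of 10 measured genes of this list, set 1 had 4 higher and 1 lower, set 2 had 8 higher and 0 lower, and set 3 had 4 higher and 1 lower. Among all genes 8.86%, 17% and 7.81% were higher and 10.7%, 16% and 10.4% lower in sets 1 to 3. The median log2 ratios of the list were 0.89, 1.73 and 0.93, beside -0.05, 0.09 and -0.06 over all genes.

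Hormone receptors and steroid metabolism gave 1 gene with a large and repeated separation. *Hsd17b7*, which encodes a 17β-hydroxysteroid dehydrogenase known from the rodent corpus luteum as a prolactin receptor-associated protein, was at 10.4, 17.5 and 10.2 in group 2. It was at 0.591, 0.865 and 1.49 in the theca reference and at 0.384, 0.283 and 0.639 in the granulosa reference. The ratio of *Hsd17b7* to marker-negative cells was 20.6 (18.5 to 23.0), 56.3 (42.1 to 77.0) and 20.6 (16.7 to 25.6), and it was detected in 84.0%, 86.4% and 78.9% of the group's cells. *Prlr*, the prolactin receptor, was at 13.8, 11.1 and 13, above marker-negative cells by 1.78, 2.88 and 2.62, but close to the theca reference of set 3, where it was at 12.0. *Lhcgr*, the receptor for luteinizing hormone and hCG, was at 8.27 and 7.92 in sets 1 and 2 and at 2.68 in set 3. Of the list of progesterone and estradiol metabolism, which holds *Hsd17b7*, 1 gene was higher than in marker-negative cells in each set, and 3 of 4 measured were lower in set 1, 4 of 5 in set 2 and 3 of 4 in set 3. Among all genes 8.86%, 17% and 7.81% were higher and 10.7%, 16% and 10.4% lower. *Hsd17b1*, which makes estradiol from estrone, was at 0.462, 0.282 and 0.165 against 7.05, 6.4 and 0.456, and *Cyp19a1* at 0.0686, 0.225 and 0.0138 against 2.71, 4.93 and 0.0392.

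**Figure D5:**
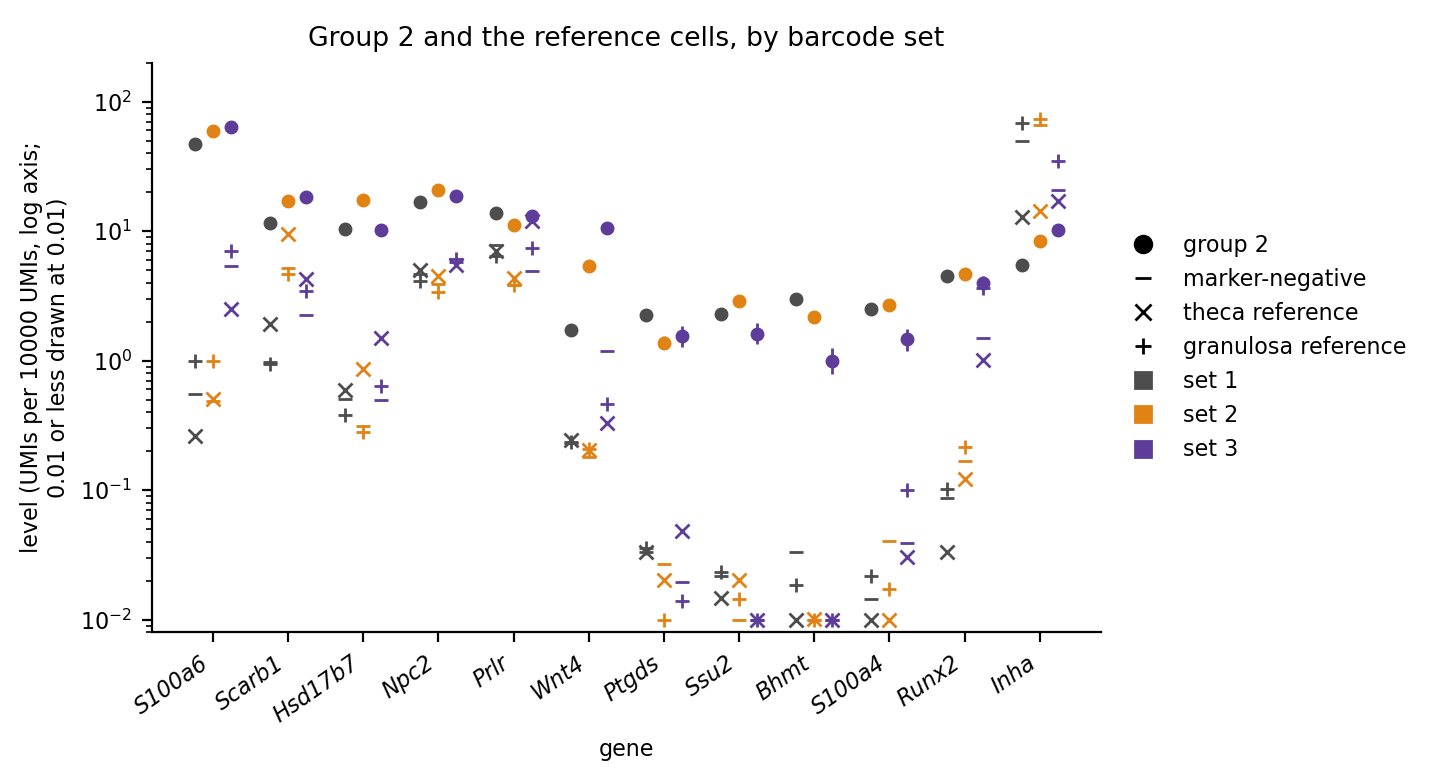
Levels (UMIs per 10000 UMIs, log axis) of 12 genes in group 2 (filled circles) and in the 3 reference groups of the same barcode set (dash, cross, plus); vertical lines on the circles are exact 95% Poisson intervals. *S100a6*, *Hsd17b7*, *Npc2*, *Wnt4*, *Ptgds*, *Ssu2*, *Bhmt* and *S100a4* lie above every reference in every set and *Inha* below, whereas *Runx2* meets the granulosa reference in set 3.

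Other members of the S100 and annexin families, calcium-binding proteins that were not in the rule, followed *S100a6* in sets 1 and 2. There, 6 of 8 genes were at least 2-fold higher than in marker-negative cells and none lower, and in set 3 the counts were 2 higher and 1 lower. The shares of all genes in sets 1 to 3 were 8.86%, 17% and 7.81% higher and 10.7%, 16% and 10.4% lower. *S100a4* was at 2.51, 2.67 and 1.46 against 0.0144, 0.0405 and 0.0392. *Anxa2* was at 4.87, 4.68 and 7.60 against 1.21, 1.63 and 5.76, and *S100a11* at 7.85, 8.11 and 7.07 against 2.63, 3.30 and 8.61. *Anxa2*, *S100a11* and *S100a10* were higher in marker-negative cells of set 3 than in those of sets 1 and 2, which was not so for *S100a4*, and *S100a10* was lower in group 2 of set 3 than in marker-negative cells, at 7.38 against 17.9.

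Of the GC genes, 0 of 9 measured were higher in the *Ssu2* and *Bhmt* group than in marker-negative cells and 7 lower for set 1, 1 of 9 higher and 8 lower for set 2, and 2 of 6 higher and 3 lower for set 3. Among all genes 8.86%, 17% and 7.81% were higher and 10.7%, 16% and 10.4% lower. Against the theca reference, 3 of 7 were higher and 1 lower for set 1, 2 of 6 higher and 0 lower for set 2, and 4 of 5 higher and 0 lower for set 3. The shares of all genes against that reference were 10.7%, 15.1% and 11.2% higher and 10.0%, 13.5% and 10.9% lower. The 12 GC markers summed to 17.7, 19.2 and 20 in the group, 18.4, 22.5 and 18.9 in the theca reference and 116, 163 and 33.0 in marker-negative cells. *Inha* was at 5.44, 8.47 and 10.2 against 49.9, 66.2 and 20.8 in marker-negative cells, and *Inhba* at 1.31, 1.58 and 0.261 against 29.6, 40.1 and 1.47. *Serpine2*, a protease inhibitor of GCs, was at 1.62, 1.76 and 2.16 against 9.49, 19.6 and 6.57. *Foxl2*, the transcription factor that maintains GC identity, differed from these, at 2.55, 1.25 and 1.42 against 2.54, 0.540 and 0.638. Of the stroma genes, 5 of 5 measured in set 1, 4 of 5 in set 2 and 6 of 6 in set 3 were lower than in marker-negative cells, *Col3a1* at 0.747, 0.494 and 0.826 against 5.40, 3.92 and 7.64. Of the proliferation genes, 3 of 4 measured in set 1, 2 of 2 in set 2 and 3 of 4 in set 3 were lower, and 0 were higher, beside the shares of all genes lower given above (10.7%, 16% and 10.4%).

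The list counts here stand beside 8.86%, 17% and 7.81% of all genes higher and 10.7%, 16% and 10.4% lower in sets 1 to 3. Of the genes of the ovulatory response, 1 was higher and 0 lower of 3 measured in set 1, 1 and 7 of 9 in set 2, and 1 and 4 of 6 in set 3. The higher gene was *Runx2*, which encodes a transcription factor induced in follicles at ovulation and was at 4.48, 4.71 and 3.99, against 0.0866, 0.169 and 1.5 in marker-negative cells. *Cebpb*, which encodes another transcription factor of ovulation, was under 2-fold in either direction, at 6.14, 8.93 and 4.50 against 4.30, 15.2 and 5.86. *Areg* had no UMI in the group's 263 cells of set 1 and was at 0.596 and 0.0551 in sets 2 and 3, against 19.2 and 0.245 in marker-negative cells of those sets. *Tnfaip6*, a gene of the cumulus matrix, was at 0.466 in set 2 against 10.2. *Wnt4*, a Wnt ligand of the ovary, was higher in each set at 1.72, 5.37 and 10.6 against 0.231, 0.182 and 1.19, and *Vegfa*, the endothelial growth factor, was at 0.606, 1.46 and 1.13 against 0.450, 0.817 and 0.275. Of the genes of luteal regression and apoptosis, 1 was higher and 1 lower of 6 measured in set 1, 0 and 4 of 7 in set 2, and 0 and 2 of 6 in set 3. The set 1 counts were near the shares over all genes. *Foxo1*, a transcription factor of follicular cell death, was at 0.560, 0.306 and 0.385 against 3.06, 0.844 and 0.780. Genes that respond to tissue dissociation gave 2 higher and 2 lower of 11 in set 1, 1 and 4 of 10 in set 2, and 0 and 3 of 11 in set 3. Of 12 genes of glycogen metabolism 2 reached the level of 0.5, and 0 of these 2 were past 2-fold in each set.

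With the 8 genes of the rule left out, 89 genes were at least 2-fold above each of the 3 references in each of the 3 sets, and 18 were at least 2-fold below. The marker-negative and granulosa references can share cells, so these are not 3 separate comparisons. A higher gene needed a level of 0.5 in group 2, whereas a lower gene needed it in each reference. The counts of 89 and 18 are therefore not alike. In single comparisons, the genes higher than in the theca reference were 381 of 3560 (10.7%), 487 of 3221 (15.1%) and 386 of 3444 (11.2%) in sets 1 to 3, and those lower 356 (10%), 434 (13.5%) and 376 (10.9%). Against the granulosa reference, 352 of 3834 (9.18%), 528 of 3414 (15.5%) and 276 of 3747 (7.37%) were higher and 453 (11.8%), 607 (17.8%) and 497 (13.3%) lower. *Bhmt*, which encodes betaine-homocysteine methyltransferase, was at 2.97, 2.17 and 1.00, with no reference above 0.0332, and was detected in 55.1%, 55.2% and 33.3% of the group's cells. *Ssu2* was at 2.31, 2.88 and 1.62, with no reference above 0.0232, and was detected in 57.4%, 61.6% and 35.1% of the cells. Both genes were uneven within the group. *Plin4* and *Plin5*, which encode coat proteins of lipid droplets, were at 1.47, 0.972 and 0.716 and at 1.57, 0.629 and 1.53. *Ptgds*, a prostaglandin D synthase, was at 2.26, 1.38 and 1.54, and *Kcnk3*, a potassium channel, at 2.18, 2.16 and 2.5. *Cemip*, which takes part in the breakdown of hyaluronan, was at 3.44, 3.06 and 2.5. Among the 18 lower genes, *Kitl*, the ligand by which GCs act on the oocyte, was at 0.243, 0.237 and 0.193, with the lowest reference at 1.74, 2.76 and 0.544. *Fabp3*, a fatty acid-binding protein, was at 0.428, 0.208 and 0.0826. When each gene was taken without the cell that held most of its UMIs, an alternative chosen after seeing the data, 66 of the 89 genes still passed, and the 23 that did not included *Saa3*, *Mmel1* and *Wnt10b*. The cell was taken out of group 2 alone and not out of the references, so the number passing could only fall. In set 3, 1 cell held 96.7% of the *Saa3* UMIs.

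Promoter windows of RefSeq (GRCm38.p6, 250 bases before to 50 after a start) were matched for 71 of the 89 genes, with 95 windows. They are shown for *Hsd17b7*, the gene that separates the group in steroid metabolism, and for its leading genes *Bhmt* and *Ssu2*. Each is printed 5′ to 3′ on the gene's strand, which is the minus strand for all 3 genes, and capitals mark a match to the NR5A motif CAAGGNCA, bound by NR5A1 and NR5A2. The windows are chr1:169969156-169969455 for *Hsd17b7*, chr13:93637709-93638008 for *Bhmt* and chr6:112387974-112388273 for *Ssu2*.
Hsd17b7: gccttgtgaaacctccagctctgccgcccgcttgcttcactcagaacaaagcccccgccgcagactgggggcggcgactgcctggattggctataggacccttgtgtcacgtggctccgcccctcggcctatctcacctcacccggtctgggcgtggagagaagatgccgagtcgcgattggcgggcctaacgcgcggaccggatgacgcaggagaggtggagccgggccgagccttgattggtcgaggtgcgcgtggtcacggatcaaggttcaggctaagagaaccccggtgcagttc
Bhmt: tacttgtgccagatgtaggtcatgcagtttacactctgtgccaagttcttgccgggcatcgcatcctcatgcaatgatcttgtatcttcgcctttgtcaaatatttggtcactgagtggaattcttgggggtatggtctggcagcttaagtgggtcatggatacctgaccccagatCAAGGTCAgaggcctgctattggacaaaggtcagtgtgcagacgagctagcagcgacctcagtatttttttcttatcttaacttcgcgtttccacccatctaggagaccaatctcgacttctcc
Ssu2: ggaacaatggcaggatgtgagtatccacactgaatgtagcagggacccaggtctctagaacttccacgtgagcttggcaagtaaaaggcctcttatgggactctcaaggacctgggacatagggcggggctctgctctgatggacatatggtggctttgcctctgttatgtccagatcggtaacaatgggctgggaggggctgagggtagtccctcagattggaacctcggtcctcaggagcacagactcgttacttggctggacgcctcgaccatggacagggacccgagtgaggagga
The match of *Bhmt*, CAAGGTCA, begins 74 bases before the start. On both strands, CAAGGNCA was found in 7 of the 95 windows (7.37%) and in 2204 of all 32851 (6.71%). The sterol element TCACNCCAC was found in 1 window of the list (1.05%), that of *Saa3*, and in 1.24% of all, and the cyclic AMP element TGACGTCA in 3 (3.16%), those of *Elovl5*, *Ltbp1* and *Shisa5*, and in 1.79% of all. The shares of CAAGGNCA and of the sterol element are close to those of all promoters. That of the cyclic AMP element is higher but rests on 3 windows. A match is not evidence of binding.

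The group was not the same in the 3 sets. Between its cells of sets 2 and 1, 75 of 3230 genes were at least 2-fold higher in set 2 (2.32%) and 57 lower (1.76%), 117 of 3391 were higher in set 3 than in set 1 (3.45%) and 130 lower (3.83%), and 109 of 3227 were higher in set 3 than in set 2 (3.38%) and 96 lower (2.97%). Higher in set 1 were *Ethe1*, a mitochondrial sulfur dioxygenase gene, at 2.79 against 0.486 in the higher of the other sets, *Cdkn1b*, the inhibitor of cyclin-dependent kinases p27, at 2.81 against 1.03, and *Igfbp5* at 6.85 against 2.71. Set 2 led in *Pde10a*, a phosphodiesterase gene, at 4.59 against 0.551, and in *Rgs2*, a regulator of G protein signalling, at 6.96 against 1.84. Set 3 led in *Spp1* at 12.6 against 0.298 and in *Tnfrsf9*, a receptor of the TNF family, at 2.02 against 0.380. *Spp1* was carried by 20 of the 57 cells, 1 of which held 28.7% of its UMIs. Over all luteal-marker cells, *Pde10a* also led in set 2, at 12.5 against 0.375, and *Spp1* in set 3, at 4.61 against 0.161. The differences in *Pde10a* and *Spp1* were thus not particular to group 2. *Ethe1* and *Cdkn1b* also led in set 1 over all luteal-marker cells. Group 2 held 263 of the 306 such cells of set 1, so this says nothing about cells outside it. *Igfbp5*, *Rgs2* and *Tnfrsf9* were not among the leading genes of a set over all luteal-marker cells. If each barcode ending stands for 1 library, animals, time point and preparation cannot be told apart here.

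At a finer clustering (resolution 1 in place of 0.5), the *Ssu2* and *Bhmt* group divided into 3 finer groups of 208, 133 and 104 cells, and the last of these had 1 further cell from group 3. The first, with 141 cells of set 1, 48 of set 2 and 19 of set 3, was led by *Ssu2* (4.08), *Bhmt* (4.30), *Parvb* (2.41), *Cst8* (11.1), a cystatin gene, and *Oxtr* (2.36), which encodes the oxytocin receptor. The second, with 116 cells of set 1, 3 of set 2 and 14 of set 3, was led by *S100b* (1.37), *Tnc* (2.55), which encodes tenascin C, *Mmp11* (3.70), a matrix metalloproteinase gene, *S100a4* (5.80) and *Cemip* (7.04), and 286 of 3539 genes were at least 2-fold higher than in the first (8.08%) and 157 lower (4.44%). The last, with 6, 75 and 24 cells, was led by *Gzmb* (0.582), which encodes granzyme B, *Tnfrsf9* (1.24), *Chek1* (1.17), a checkpoint kinase gene, and *Wnt4* (7.29), with 174 of 3236 genes higher than in the first (5.38%) and 106 lower (3.28%). *Ssu2* was at 0.326 in the second and 0.678 in the last, and *Bhmt* at 0.340 and 0.843, so both genes came mainly from the first. *Akr1c18*, a gene of the rule, was at 4.76 in the last, a level that rests on few cells. The finer groups were defined from the same counts, so these values describe them.

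Much of what all luteal-marker cells showed against marker-negative cells in sets 1 and 2 moved with the *Ssu2* and *Bhmt* group. Over all members, 292 of 3691 genes were higher (7.91%) and 336 lower (9.10%) in set 1, 210 of 3066 higher (6.85%) and 92 lower (3.0%) in set 2, and 134 of 3558 higher (3.77%) and 116 lower (3.26%) in set 3. With the genes of the rule left out, 16 genes were higher and 27 lower in each set. Members of set 1 to set 3 had *S100a6* at 42.0, 30.2 and 13.3, *Hsd17b7* at 9.47, 9.05 and 1.17, and *Epdr1*, a gene of an ependymin-related protein, at 3.09, 2.30 and 1.24 against 0.446, 0.257 and 0.216. *Nrn1*, which encodes neuritin, was at 8.01, 4.89 and 1.82 against 0.323, 1.61 and 0.775. The lower genes included the matrix genes *Dcn*, at 0.432, 0.385 and 0.324 against 1.64, 1.59 and 2.03, and *Lum*, at 0.175, 0.151 and 0.177 against 0.560, 0.574 and 0.697. Leaving out the cells of group 2, an alternative chosen after seeing the data, left 43, 317 and 1219 cells. Group 2 had made up 85.9% of set 1, which was then under the 50 cells required for naming genes. Group 2 was found from these same counts. It held 5391859 of 6064799 UMIs in set 1 and 2448021 of 4906150 in set 2. A fall in sets 1 and 2 was therefore largely built in and is no test. The genes higher were 42 (1.17%), 30 (1.03%) and 158 (4.41%), and those lower 18 (0.503%), 61 (2.10%) and 119 (3.32%). Of the 30 higher in set 2, 7 were among the 210 found with group 2. Of the 16 genes higher in each set, *Epdr1* alone remained past 2-fold in each set.

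Mitochondrial transcripts made up 5.20%, 5.61% and 3.21% of the UMIs of the luteal-marker cells of sets 1 to 3, and 5.49%, 5.48% and 3.79% in marker-negative cells. The 8 myeloid markers summed to 0.0735 and the 8 endothelial markers to 0.105 in group 2, where *Adgre1* and *Vwf* were at 0 and *Ptprc* and *Pecam1* were at 0 by the rule. The 4 erythroid markers summed to 0.592 in group 2, with 0.920 in its cells of set 1, 0.0286 in set 2 and 0.0551 in set 3, against 0.0635, 0.0338 and 0.275 in marker-negative cells. In set 1 of the group this was mainly *Hbb-bs* at 0.495 and *Hba-a1* at 0.321, which encode hemoglobin chains, and their part in the set 1 levels was not tested. The sets shared between 27 and 46 barcodes pairwise, and 0 of these were among the luteal-marker cells. Without the 5% of cells of most UMIs in each set, group 2 kept 162, 49 and 43 cells, with *S100a6* at 49.0, 75.3 and 70.6, *Scarb1* at 9.68, 14.6 and 15.6, *Hsd17b7* at 8.93, 10.3 and 6.80, and *Bhmt* at 2.37, 1.23 and 0.587.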

How the data were processed

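The authors deposited 1 table of all cells whose values are the natural log of (count × 10000 / cell total + 1), counts being UMIs. The labels name mm10, Cell Ranger and Seurat, with no version. The UMI counts worked back from it were whole within 0.01 for 100% of 80167176 values (31776 cells, 24958 genes, 240030587 UMIs, at least 500 per cell). The members and gene lists were chosen with earlier results of these data known. Levels are summed UMIs per 10000 with exact Poisson 95% intervals, and ratios have exact conditional binomial intervals. A gene was compared with a level of at least 0.5 in either group and counted from 2-fold, and a count of 0 was set to 3 UMIs. The 2024 cells of all sets were clustered together by the Louvain method (2000 variable genes, 20 principal components, 15 neighbours, resolution 0.5), with no correction between sets. The genes named were the 5 markers, those of the fixed lists, the genes past 2-fold in every set (up to 20 higher and 10 lower), leading genes of groups and sets, and, chosen after their values were seen, genes of group 2 and of groups 1, 3 and 5 against the references. No doublets were removed, and no doublet caller was run. Intervals came from scipy 1.17.1, clusters from python-igraph 0.11.9 and scikit-learn 1.9.0, and plots from matplotlib 3.10.9, under Python 3.11.15 with numpy 2.4.6.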

Additional observations from a re-analysis of the deposited data

Results flagged for a closer look

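Among the genes named by rule, 4 lay past 2-fold in opposite directions in different barcode sets when luteal-marker cells were set against marker-negative cells, and the difference between sets was not tested. Over all genes there were 15 such genes. A level of at least 0.5 in either group of each set was reached by 2503 genes, which do not hold all of the 15. *Tnfaip6*, for 1, was at 0.0198 in luteal-marker cells and 0.0217 in marker-negative cells of set 1. *Fst*, which encodes follistatin, had a ratio of 0.273 in set 1 and 2.56 in set 3. *Gsta4*, a glutathione S-transferase gene, had 0.257 in set 1 and 2.20 in set 3. *Tnfaip6* had 0.368 in set 2 and 2.02 in set 3, and *Rasl11a*, a small GTPase gene, had 3.48 in set 1 and 0.391 in set 3. The groups that make up the luteal-marker cells differed between these sets, and their part in the ratios was not tested.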

How the results depend on the processing

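No paired analysis was possible because each time point had 1 library. The share of cells chosen in sets 1, 2 and 3 was 1.00%, 0.908% and 1.32% with at least 3 markers, 2.09%, 2.82% and 5.86% with a marker counted from 2 UMIs, 2.33%, 4.02% and 1.80% with *Sfrp4* and *Ptgfr* both required, and 2.01%, 3.28% and 7.47% after thinning. It was 2.67%, 2.57% and 5.35% with a *Cyp11a1* limit of 3, and 1.93% and 3.78% in sets 1 and 2 without the 5% of cells of most UMIs. The genes higher than in marker-negative cells numbered 649, 648 and 326 with a minimum level of 0.1, and those lower 909, 402 and 377. In set 2 the genes higher were 96 (3.11%) with the mean over cells, 424 (13.1%) with at least 3 markers, 108 (3.53%) after thinning and 51 (1.74%) without the deepest cells. Those lower in set 2 were 361 (11.2%) with at least 3 markers and 59 (2.01%) without the deepest cells. Without group 2, which left 43 cells in set 1, the genes higher were 42 in set 1 (1.17%) and 30 in set 2 (1.03%). Those lower were 18 (0.503%) and 61 (2.10%). The genes higher in each set numbered 10 with the mean over cells, 47 with at least 3 markers, 6 without the deepest cells and 1 without group 2, and those lower in each set 6 without group 2. Without group 2 the ratio was 0.248 for *Cited1* and 0.762 for *Slc6a6* in set 2 and 1.31 for *Ren1* in set 1, on the other side of 1. The cause of these shifts was not tested. Taken without its 5% deepest cells, with the mean over cells, or each gene without its top cell, group 2 gave 78, 81 and 66 genes above all references and 16, 14 and 24 below. The top cell was left out of group 2 only, so there the count above could only fall and the count below only rise. A resolution of 1 gave 10 groups.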

Other observations

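At a resolution of 1, group 1, whose 912 cells were all of set 3, divided into 522 and 390 cells. The larger had *Nts*, which encodes neurotensin, at 55.1 UMIs per 10000 against 40.5 in the smaller, and *Sult1e1*, the estrogen sulfotransferase, at 33.4 against 29.7. The smaller had *Lyve1*, a hyaluronan receptor gene, at 10.1 against 1.32, and *Npy* at 8.29 against 3.24.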
